A study of Mus musculus with 12 samples.

Results

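The genes described here were the heat shock proteins and the DNAJ co-chaperones of the mouse, 72 of the 46731 genes in the deposited table. The rule used gene symbol and protein-coding status, but the set was chosen with earlier results of these data known. It took the Hspa, Hspb, Hspd, Hspe, Hsph and cytosolic Hsp90a families, the Dnaja, Dnajb and Dnajc families, and the heat shock factors *Hsf1* and *Hsf2*, without *Hspa5* and the exchange factor *Hspbp1*. By role the members were 13 HSP70 and HSP110 genes, 2 HSP90 genes, 8 small heat shock proteins, the 2 subunits of the mitochondrial chaperonin, 4 DNAJA, 13 DNAJB and 28 DNAJC genes and 2 heat shock factors. They were followed in RNA-seq of ATDC5, a chondrogenic line from mouse teratocarcinoma, in 12 libraries that made 4 groups of 3. The groups were shRNA-NC and shRNA-*Ddx5* cells kept without stimulation (called in medium here), and the same cells with IL-1β and TNF-α (5 ng/ml and 25 ng/ml, per the methods of the study) for 6 h. All groups carried a lentiviral hairpin cassette, a non-targeting one (shRNA-NC) or one against *Ddx5*, an RNA helicase, and each arm was a stably transduced line. The labels do not say whether libraries of a group came from separate cultures, but the study describes its 3 replicates as biologically independent experiments. The p-values below measure the spread between libraries within each line. An effect of the hairpin line cannot be told apart from an effect of the lower *Ddx5* level.

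HSP70 and HSP90 are ATP-driven chaperones that bind unfolded or maturing proteins. DNAJ proteins (also called HSP40) deliver substrates to HSP70 and start its ATP hydrolysis through their J domain, and HSP110 proteins and other exchange factors release the nucleotide again. Small heat shock proteins hold unfolded proteins without ATP, the chaperonin *Hspd1* with its lid *Hspe1* folds proteins in the mitochondrial matrix, and *Hsf1* is the transcription factor that drives many of these genes when proteins unfold. Cells that secrete much matrix, as chondrocytes do, also depend on DNAJ proteins of the endoplasmic reticulum (ER).

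The libraries held 14119199 to 19276520 fragments on genes, recovered from the deposited values. *Ddx5* itself stood at 319 ± 22.3 FPKM (mean ± SD, n = 3) in shRNA-NC and 103 ± 13.9 in shRNA-*Ddx5* cells in medium, and at 310.1 ± 14.9 and 99.5 ± 5.27 with the cytokines. The chondrocyte label rested on few markers: of 8 chondrocyte genes only *Sox9* reached 1 FPKM in every library, and 5 (*Sox6*, *Acan*, *Hapln1*, *Matn1* and *Comp*) stayed below it in every library. The summed chondrocyte markers moved with the groups (39.1 to 44.3 FPKM in shRNA-NC and 26.1 to 29.96 in shRNA-*Ddx5* cells in medium, 12.9 to 18.01 and 7.15 to 7.90 with the cytokines), as did the summed mesenchymal markers (2006 to 2501, 3238 to 3450, 1319 to 1517 and 2191 to 2490 FPKM). The mesenchymal sum joined opposite movements, since with the knockdown *Col1a1*, *Col1a2* and *Col3a1* rose and *Vim* fell in both media. In medium *Col1a2* was at 492 to 512 FPKM in shRNA-NC and 1678 to 1774 FPKM in shRNA-*Ddx5* cells. *Vim* was at 1480 to 1961 and 1181 to 1301 FPKM there. The part of the markers in the results on chaperones was not tested. In bulk RNA fewer cells of a kind and less RNA per cell cannot be told apart. The 8 markers of blood, endothelial, epithelial and muscle cells stayed below 1 FPKM in every library. Replicate 1 of shRNA-NC with cytokines stood apart most for the genes of interest. It held 9032 FPKM over the 72 genes against 6298 and 6986 in the others of its group, and it was the highest of its group for 36 of the 58 tested members. The value without it is given for most members whose call changed when it was left out. Replicate 3 of shRNA-NC in medium deviated nearly as much from its group. The SD of log2 deviations was 0.268 over members, against 0.283 for the former library, and 0.388 against 0.341 over all tested genes. Without replicate 3 of shRNA-NC in medium, 15 members were higher and 17 lower with the knockdown in medium, beside 3047 and 2576 of all tested genes. With the cytokines in shRNA-NC cells they were then 12 and 7, beside 2087 and 1619.

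Of the 72 members, 58 reached 1 FPKM in at least 3 libraries and were tested (limma on log2(FPKM + 1) over all 12368 such genes, adjusted p under 0.05 by Benjamini-Hochberg). The knockdown moved members in both directions. In medium, 14 of the 58 (24.1%) were called higher in shRNA-*Ddx5* cells and 18 (31.0%) lower, beside 25.3% and 21.7% of all tested genes. With the cytokines, 13 (22.4%) were higher and 20 (34.5%) lower, beside 23.5% and 22.1% of all tested genes. The median log2 fold change of the members was -0.05 in medium and -0.01 with the cytokines, and that of all tested genes was 0.03 and 0.01. Other scalings gave more lower members but also shifted all genes. In medium, 15 members were higher and 20 lower after quantile normalization, beside 2783 and 2835 of all 12368 genes. After rescaling to the same FPKM sum these were 12 and 24, beside 2167 and 3620 (member median -0.20 in both). With the cytokines, members were 13 and 23 (median -0.06) and 10 and 23 (median -0.11), beside 2616 and 2922 and 2150 and 3374 of all genes. In the main fit all genes stood at 3131 and 2686 in medium and 2906 and 2739 with the cytokines. The cytokines moved 12 members up (20.7%) and 9 down (15.5%) in shRNA-NC cells, beside 18.6% and 15.2% of all tested genes (medians 0.06 and 0.02). In shRNA-*Ddx5* cells they moved 4 up (6.90%) and 5 down (8.62%), beside 13.5% and 13.5% of all tested genes (medians 0.01 and 0.00). The split for the cytokines in shRNA-NC cells hung on the scaling between libraries, for members and for all genes. After quantile normalization 7 members were higher and 13 lower, beside 1815 and 2368 of all tested genes. After each library was rescaled to the same FPKM sum these were 8 and 13, beside 1490 and 3047. In the main fit all genes stood at 2303 and 1878. The knockdown difference itself changed with the cytokines for 3 members, *Hspb1*, *Dnajc12* and *Dnajc28* (8.21% of all tested genes in either direction). For every other member a call in one medium and not in the other is therefore no evidence that the media differed. The comparisons share groups (both knockdown and both cytokine comparisons reuse the same libraries), so they are not independent of each other. Between them, 47 members were called at least once and 11 never. The same count over all tested genes was not made, so no difference of the members from other genes is read from it.

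**Figure D1:**
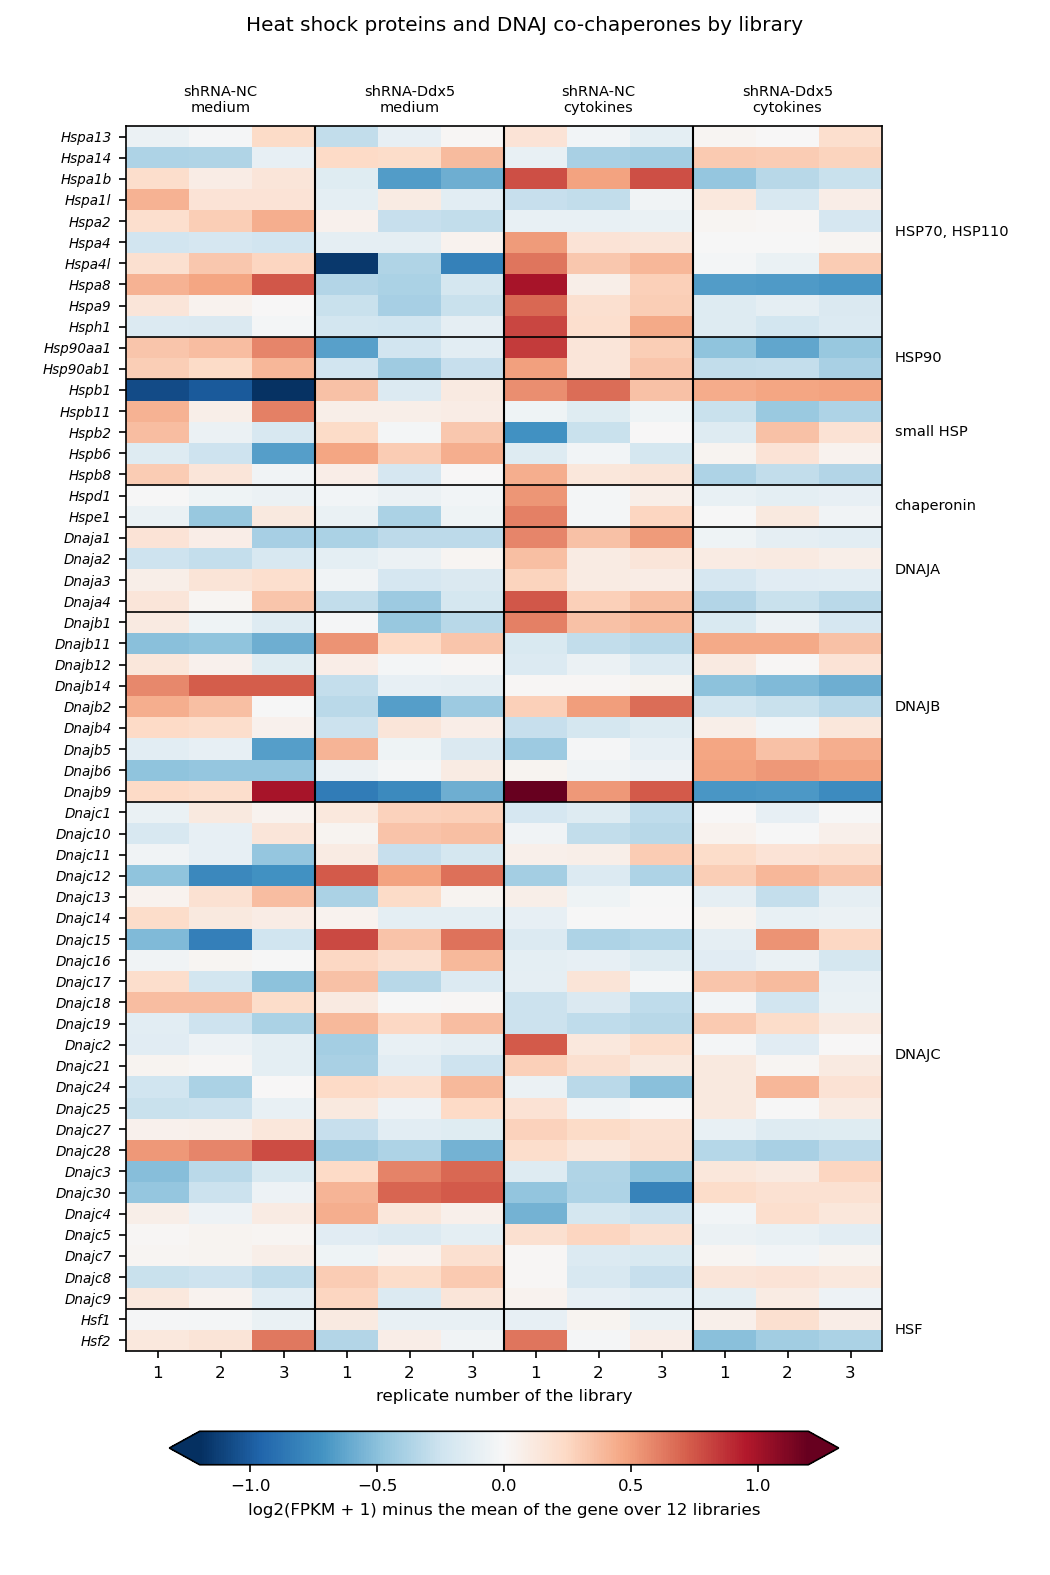
Level of the 58 tested members in each of the 12 libraries, as log2(FPKM + 1) minus the mean of the gene over all libraries (red above, blue below; the colour scale saturates at 1.2). Rows are genes by role class and columns are libraries by group; *Hspa8*, both Hsp90 genes, *Hspa1b* and *Dnajb9* were blue in all 6 shRNA-*Ddx5* libraries, *Dnajb11* and *Dnajc12* were red there, and replicate 1 of shRNA-NC with cytokines was the highest of its group for 36 members.

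The most abundant HSP70 gene fell with the knockdown in both media. *Hspa8*, the constitutive HSP70 (Hsc70), was at 1629, 1690 and 2047 FPKM in the 3 libraries of shRNA-NC in medium and at 958, 937 and 1055 FPKM in the shRNA-*Ddx5* libraries. With the cytokines it was at 2422, 1280 and 1487 FPKM in shRNA-NC and at 766, 761 and 753 FPKM in shRNA-*Ddx5* cells. Every shRNA-*Ddx5* library lay below every shRNA-NC library in the same medium. The log2 fold change with the knockdown was -0.86 ± 0.20 (SE) in medium, adjusted p = 0.00427, and -1.13 ± 0.20 with the cytokines, adjusted p = 0.000780. Without replicate 1 of shRNA-NC with cytokines the latter was -0.86 (adjusted p = 0.000456). The mean in the knockdown cells was 55.00% of that in shRNA-NC cells in medium and 43.9% with the cytokines. Processed copies of *Hspa8* and of *Hsp90ab1* lie elsewhere in the genome, and how the authors counted reads with several matches is not given in the sources used here.

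*Hspa1b* (chr17:35175405-35178214, minus strand, GRCm39), the classical heat-inducible HSP70, was at 12.2, 11.1 and 11.6 FPKM in shRNA-NC and 9.26, 6.15 and 6.57 FPKM in shRNA-*Ddx5* cells in medium. With the cytokines the values were 18.5, 14.9 and 18.5 FPKM in shRNA-NC and 7.27, 8.01 and 8.45 FPKM in shRNA-*Ddx5* cells. All 6 knockdown libraries lay below all 6 shRNA-NC libraries. The log2 fold change was -0.62 ± 0.13 in medium (adjusted p = 0.00293) and -1.03 ± 0.13 with the cytokines (adjusted p = 9.87e-05). Its neighbour and near-identical copy *Hspa1a* (chr17:35188335-35191132, 10120 bases away) was listed at no more than 0.190 FPKM in any library. How reads that match both copies were counted is not given. The division between the copies is therefore uncertain, and whether the values stand for *Hspa1b* or for the pair is not known.

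Among the other HSP70 genes, the testis-rich *Hspa4l*, an HSP110-type exchange factor, fell in medium from 22.4, 24.6 and 23.4 to 8.17, 14.9 and 10.7 FPKM, with a log2 difference of -1.04 ± 0.18 (adjusted p = 0.000637). With the cytokines the difference was -0.39 ± 0.18 and did not pass (adjusted p = 0.0940), and neither did the change of the difference (adjusted p = 0.137). *Hspa14*, a ribosome-bound HSP70, went the other way: it was at 24.9, 25.2 and 30.4 FPKM in shRNA-NC and 38.6, 38.1 and 42.8 FPKM in shRNA-*Ddx5* cells in medium, and at 30.6, 24.7 and 24.4 FPKM against 40.7, 40.6 and 39.4 FPKM with the cytokines. It rose by 0.56 ± 0.10 and 0.59 ± 0.10 on the log2 scale (adjusted p = 0.00115 and 0.000816). *Hspa14* was the only HSP70 or HSP110 gene called higher with the knockdown, while 5 of the 10 tested were called lower in each medium. Among all tested genes 21.7% were called lower in medium and 22.1% with the cytokines. *Hspa2*, best known from sperm cells, was lower in medium (-0.48 ± 0.11, adjusted p = 0.00404) and was not called with the cytokines (0.03 ± 0.11, adjusted p = 0.845).

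Both cytosolic HSP90 genes fell. *Hsp90ab1*, the constitutive form, was at 2297, 2201 and 2477 FPKM in shRNA-NC and 1600, 1395 and 1542 FPKM in shRNA-*Ddx5* cells in medium, and at 2636, 2076 and 2367 FPKM against 1528, 1539 and 1431 FPKM with the cytokines. *Hsp90aa1*, the inducible form, was at 466, 480.1 and 558 FPKM in shRNA-NC against 235, 316 and 340.3 FPKM in shRNA-*Ddx5* cells in medium and at 665, 410.1 and 454 FPKM against 264, 239.5 and 271 FPKM with the cytokines. In neither gene did a knockdown library reach the lowest shRNA-NC library. The log2 fold changes of *Hsp90ab1* were -0.62 ± 0.12 and -0.65 ± 0.12 (adjusted p = 0.00129 and 0.000988), and those of *Hsp90aa1* were -0.77 ± 0.18 and -0.95 ± 0.18 (adjusted p = 0.00513 and 0.00150). The cytokines moved neither gene past the threshold in either cell line.

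**Figure D2:**
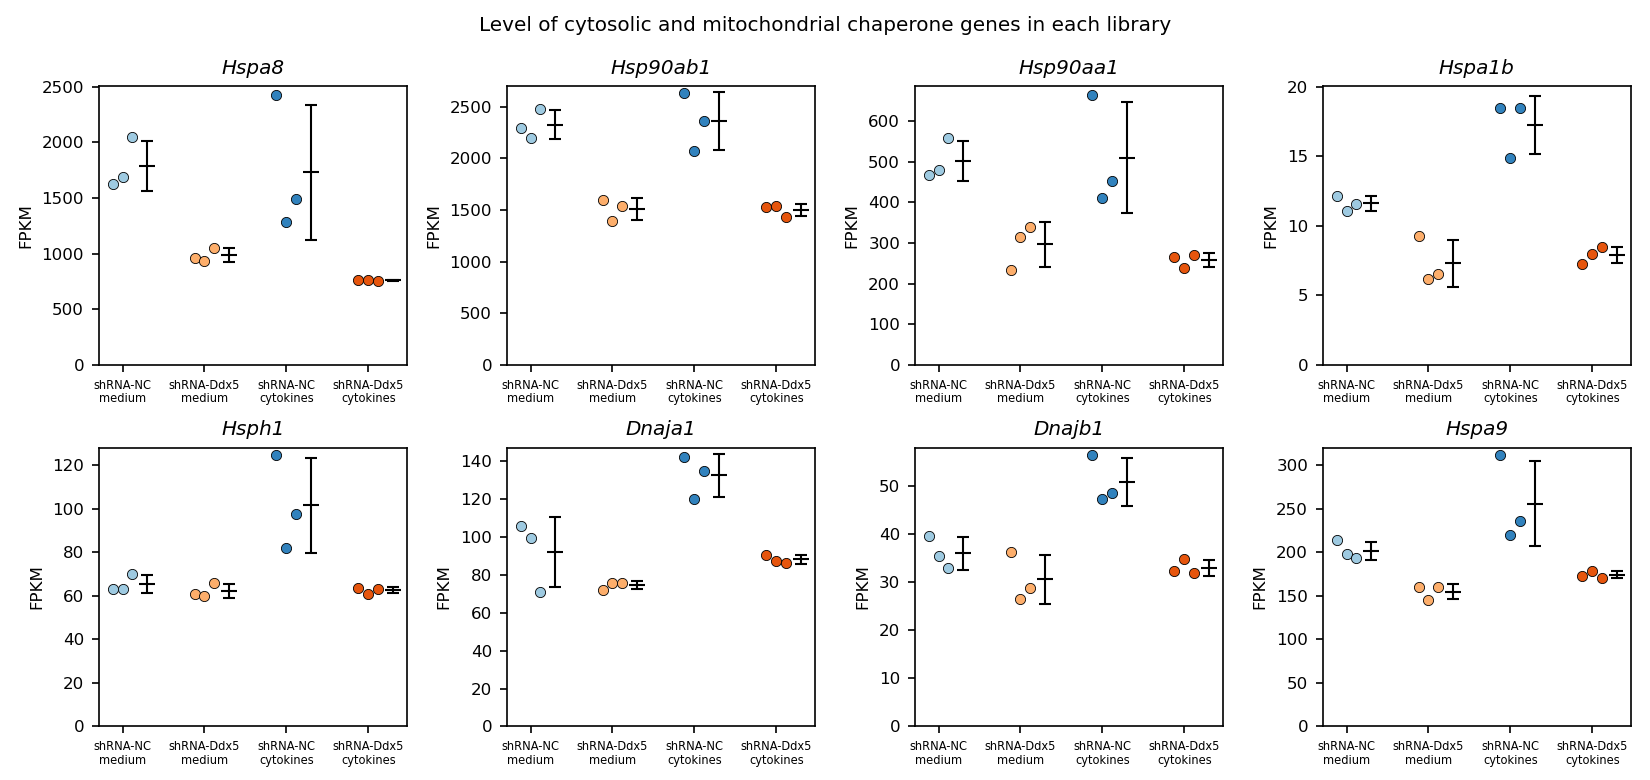
FPKM of 8 chaperone genes in each library (points, 3 per group) with the mean and SD of each group beside them. All knockdown libraries of *Hspa8*, *Hsp90ab1*, *Hsp90aa1* and *Hspa1b* lay below the shRNA-NC libraries in the same medium; for *Hsph1*, *Dnaja1* and *Dnajb1* the shRNA-NC libraries with cytokines stood above the other 3 groups.

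The summed level of the members was lower in the knockdown cells, which is given as a description without a test. The 72 members summed to 6909 ± 435 FPKM (SD, n = 3) in shRNA-NC and 5120 ± 256 FPKM in shRNA-*Ddx5* cells in medium, and to 7438 ± 1422 and 4924 ± 77.1 FPKM with the cytokines. As a share of the summed FPKM of all genes these were 1.85% ± 0.12 and 1.23% ± 0.05, and 1.78% ± 0.27 and 1.09% ± 0.02. Without *Hsp90ab1* and *Hspa8* the sums were 2795 ± 99.1 and 2624 ± 121 FPKM in medium and 3349 ± 549 and 2664 ± 16.7 FPKM with the cytokines. By class, the HSP70 and HSP110 genes went from 2238 ± 227 to 1385 ± 79.4 FPKM in medium and the HSP90 genes from 2827 ± 185 to 1809 ± 88.6 FPKM. The DNAJC genes summed to 449 ± 1.601 FPKM in shRNA-NC and 525 ± 19.5 FPKM in shRNA-*Ddx5* cells in medium, and to 463 ± 40.9 and 491 ± 3.61 FPKM with the cytokines, where the libraries overlapped. With the cytokines the HSP70 and HSP110 genes summed to 2313 ± 708 FPKM in shRNA-NC and 1199 ± 3.95 FPKM in shRNA-*Ddx5* cells, and the HSP90 genes to 2869 ± 409 and 1758 ± 48.8 FPKM.

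**Figure D3:**
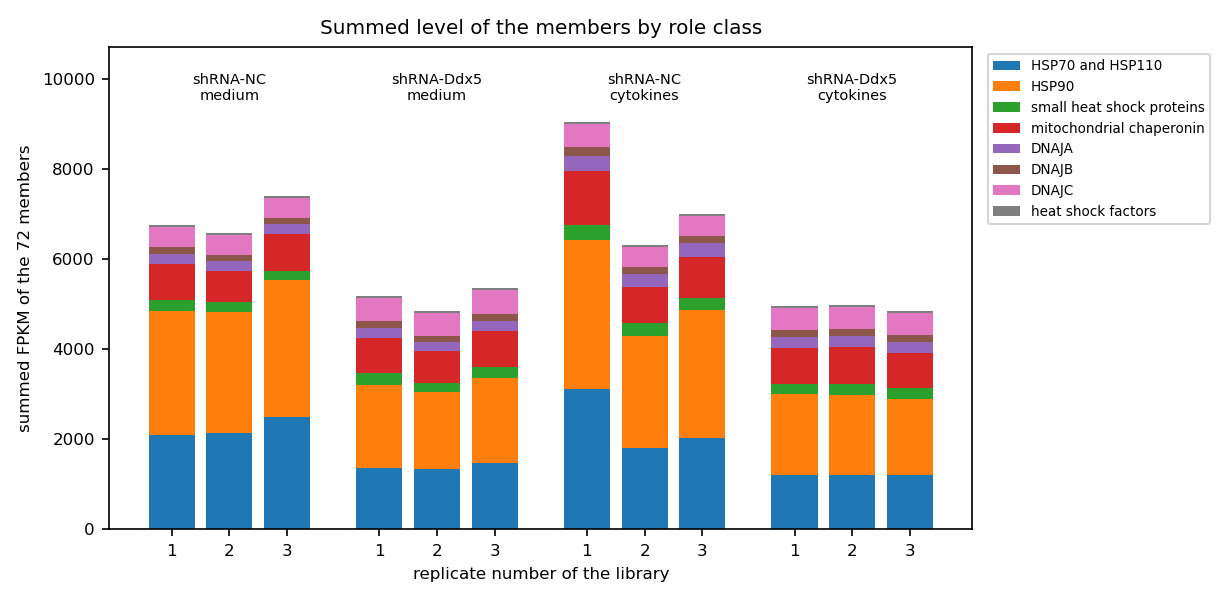
Summed FPKM of the 72 members in each library, stacked by role class. The 6 shRNA-*Ddx5* libraries reached 4837 to 5348 FPKM and the 6 shRNA-NC libraries 6298 to 9032 FPKM, with the HSP70 and HSP90 segments the tallest in every library.

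Textbook targets of the heat shock response made up 13 of the members, and 12 of them were tested. The counts below stand beside 25.3% of all tested genes higher and 21.7% lower with the knockdown in medium, and 23.5% and 22.1% with the cytokines. The cytokines raised 18.6% of all tested genes in shRNA-NC and 13.5% in shRNA-*Ddx5* cells. With the knockdown in medium, 5 were lower (*Hspa1b*, *Hspa8*, *Hsp90aa1*, *Hsp90ab1* and *Hspa4l*) and 1 was higher (*Hspb1*), with a median log2 fold change of -0.26. With the cytokines, 8 were lower (*Hspa1b*, *Hspa8*, *Hsph1*, *Hsp90aa1*, *Hsp90ab1*, *Hspb8*, *Dnaja1* and *Dnajb1*) and by limma none was higher, also at an unadjusted p under 0.05, with a median of -0.59. Without replicate 1 of shRNA-NC with cytokines, 8 were still called lower, with a median of -0.52. In medium the count rose with other scalings, to 10 lower after quantile normalization and 8 after rescaling to the same FPKM sum. Lower calls among all tested genes rose too, from 2686 to 2835 and 3620. The cytokines raised 5 of the 12 in shRNA-NC cells (*Hspa1b*, *Hsph1*, *Hspb1*, *Dnaja1* and *Dnajb1*) and 2 in shRNA-*Ddx5* cells (*Hspa4l* and *Hspb1*), with medians of 0.33 and 0.06.

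The promoters of these genes are known for the heat shock element, inverted copies of GAA that *Hsf1* trimers bind. The motif was searched as 2 units, GAANNTTC or TTCNNGAA (each reads the same on both strands, and they share letters where 3 units follow each other), in RefSeq windows from 250 bases before to 50 after each start (made on GRCm38.p6). Of 27025 genes with a window, 17.0% held it. Of the 57 members with a window, 16 held it, which was 8 of the 10 textbook heat-inducible members and 8 of the 47 others. A run of 3 units in a row stood in 0.662% of all genes and in 4 members (*Hspd1*, *Hspe1*, *Hsph1* and *Dnajb6*). Of the elements that lie upstream of a start, those of 5 genes whose RNA moved and that of *Hspe1*, whose RNA was not called, are shown here, read 5′ to 3′ on the coding strand of each gene. Capitals mark the element, which ends 90 bases before the start for *Hspb1*, 97 for *Hspa1b*, 117 for *Dnaja1* and 72 for *Hspe1*, and for genes with several starts 26 or 47 before it for *Hsph1* and 34 or 115 for *Dnajb6*. The whole windows matched GRCm39 exactly and at a single place, which puts the stretches at chr5:135916644-135916695 (plus strand) for *Hspb1*, chr17:35178299-35178330 (minus) for *Hspa1b*, chr4:40722333-40722362 (plus) for *Dnaja1*, chr5:149559816-149559845 (minus) for *Hsph1*, chr5:29940842-29940870 (plus) for *Dnajb6* and chr1:55127212-55127241 (plus) for *Hspe1*.
Hspb1: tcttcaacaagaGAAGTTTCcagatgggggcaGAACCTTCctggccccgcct
Hspa1b: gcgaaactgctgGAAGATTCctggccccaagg
Dnaja1: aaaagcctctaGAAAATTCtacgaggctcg
Hsph1: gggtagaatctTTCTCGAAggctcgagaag
Dnajb6: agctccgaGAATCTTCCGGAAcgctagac
Hspe1: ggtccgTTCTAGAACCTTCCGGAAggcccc

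The *Hspb1* and *Hspa1b* stretches overlap no annotated transcript of GENCODE, while the other 4 overlap an annotated exon of the same gene or, for *Hspe1*, of the neighbour *Hspd1*. The *Hspe1* and *Hspd1* genes share that element, since they start head to head. The *Hspa1a* promoter holds the same 32 bases as that of *Hspa1b*. Members with the element went both ways. Among tested members with a window, 3 with the element were higher, 3 lower and 7 not called with the knockdown in medium, and 1, 6 and 6 with the cytokines. Of those without it, 9 were higher, 9 lower and 14 not called in medium, and 10, 8 and 14 with the cytokines. These counts describe letters in a window and not binding, and *Hspa8* and both Hsp90 genes were not among the windows.

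The inducible partners of HSP70 were lower in the knockdown cells under cytokines, where shRNA-NC cells had raised them. *Hsph1* (HSP110, a cytosolic exchange factor) was at 63.3, 62.96 and 70.03 FPKM in shRNA-NC and 60.8, 60.02 and 65.8 FPKM in shRNA-*Ddx5* cells in medium, and at 125, 81.9 and 97.6 FPKM against 63.6, 60.9 and 63.2 FPKM with the cytokines. *Dnaja1*, a DNAJ that feeds unfolded clients to *Hspa8*, was at 106, 99.6 and 71.3 FPKM in shRNA-NC against 72.1, 75.9 and 75.6 FPKM in shRNA-*Ddx5* cells in medium and at 142, 120.4 and 135 FPKM against 90.8, 87.4 and 86.5 FPKM with the cytokines. *Dnajb1* (HSP40), which works with HSP70 and HSP110 on aggregates, was at 39.7, 35.4 and 32.9 FPKM in shRNA-NC against 36.2, 26.6 and 28.8 FPKM in shRNA-*Ddx5* cells in medium and at 56.4, 47.2 and 48.5 FPKM against 32.2, 34.8 and 31.8 FPKM with the cytokines. In medium the groups overlapped for each of these genes, and with the cytokines all 3 shRNA-*Ddx5* libraries lay below all 3 shRNA-NC libraries. The knockdown difference in medium was -0.07 ± 0.13, -0.28 ± 0.13 and -0.24 ± 0.12 on the log2 scale and did not pass (adjusted p = 0.673, 0.0900 and 0.122). After quantile normalization all 3 were called lower in medium (-0.33, -0.56 and -0.40), and after rescaling to the same FPKM sum *Dnaja1* and *Dnajb1* were (-0.44 and -0.39, adjusted p = 0.0159 and 0.00441). With the cytokines it was -0.67 ± 0.13, -0.58 ± 0.13 and -0.60 ± 0.12 (adjusted p = 0.00126, 0.00350 and 0.00166). The change of the knockdown difference between the media was not past the threshold for any of the 3 (-0.60 ± 0.18, adjusted p = 0.0636, for *Hsph1*, 0.361 for *Dnaja1* and 0.212 for *Dnajb1*), so a difference between the media was not shown for them.

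Relatives of these partners were read in the same way. *Hspa4*, another exchange factor, was at 92.4 ± 1.17 FPKM in shRNA-NC and 104 ± 6.45 FPKM in shRNA-*Ddx5* cells in medium and at 131 ± 19.6 and 108 ± 1.18 FPKM with the cytokines (SD, n = 3). Its fall with the knockdown under cytokines, -0.26 ± 0.10 on the log2 scale (adjusted p = 0.0438), was -0.15 and no longer called without replicate 1 of shRNA-NC with cytokines (adjusted p = 0.121). *Dnaja2*, the most abundant DNAJA gene per length, was at 103 ± 3.56 FPKM in shRNA-NC cells in medium and was not called with the knockdown in either medium (without replicate 1 of shRNA-NC with cytokines it was called higher in medium, 0.19, adjusted p = 0.0301). *Dnaja4* fell in both (-0.48 ± 0.13 and -0.78 ± 0.13, adjusted p = 0.00904 and 0.000482) from a low level, 4.54, 4.08 and 5.31 FPKM in shRNA-NC and 3.09, 2.70 and 3.33 FPKM in shRNA-*Ddx5* cells in medium, and 7.42, 5.13 and 5.42 and 2.93, 3.16 and 3.02 FPKM with the cytokines. Of the 4 DNAJA genes, 2 were lower with the knockdown in medium and 3 with the cytokines, beside 21.7% and 22.1% of all tested genes.

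The mitochondrial members split. *Hspa9* (mortalin), the HSP70 of the matrix that also drives protein import, was at 214, 198 and 193 FPKM in shRNA-NC and 159.8, 145 and 159.6 FPKM in shRNA-*Ddx5* cells in medium, and at 312, 219.9 and 236 FPKM against 173, 178 and 171 FPKM with the cytokines. The log2 fold changes were -0.38 ± 0.12 and -0.54 ± 0.12 (adjusted p = 0.0202 and 0.00317), and the groups did not overlap in either medium. *Dnaja3*, its J-domain partner in the matrix, was lower as well (-0.28 ± 0.08 and -0.31 ± 0.08, adjusted p = 0.00953 and 0.00645). The chaperonin pair *Hspd1* and *Hspe1*, whose genes are divergent and overlap by 96 bases in the deposited annotation, was not called in any comparison (with quantile normalization *Hspd1* was lower with the knockdown in both media, -0.29 and -0.52). *Hspd1* was at 377 ± 9.09 FPKM in shRNA-NC and 376 ± 5.10 FPKM in shRNA-*Ddx5* cells in medium and at 450.2 ± 97.6 and 361 ± 3.998 FPKM with the cytokines, and *Hspe1* at 395 ± 77.5, 383 ± 46.4, 529.5 ± 116 and 437 ± 25.8 FPKM (SD, n = 3). Their log2 differences with the knockdown in medium were -0.01 ± 0.12 and -0.03 ± 0.18 (adjusted p = 0.977 and 0.898). Strand-specific counting is not stated, so reads in their shared bases could be given to either.

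The 3 DNAJ genes of the mitochondrial inner membrane rose. *Dnajc15*, a J protein of the import motor, was at 6.36, 5.02 and 8.01 FPKM in shRNA-NC and 17.5, 12.5 and 15.7 FPKM in shRNA-*Ddx5* cells in medium, and at 8.50, 7.25 and 7.39 FPKM against 8.87, 14.5 and 11.7 FPKM with the cytokines. The log2 fold change was 1.13 ± 0.18 in medium (adjusted p = 0.000510) and 0.52 ± 0.18 with the cytokines (adjusted p = 0.0381), and the latter call was lost in 9 of the alternative settings. *Dnajc19*, another J protein of the import motor, rose by 0.59 and 0.51 on the log2 scale (adjusted p = 0.000269 and 0.000630), and *Dnajc30*, a J protein linked to respiratory complex I, by 0.88 and 0.74 (adjusted p = 0.000354 and 0.00108). *Dnajc19* overlaps *Fxr1* on the other strand over 12701 bases, and *Dnajc30* overlaps *Bud23* over 754 bases. With the knockdown in medium *Fxr1* changed by -0.90 and *Bud23* by 1.12 on the log2 scale, so that *Dnajc19* moved against its neighbour and *Dnajc30* moved with it. The part of reads from *Bud23* in the *Dnajc30* result was not tested. Over the 8 mitochondrial members, 3 were higher and 2 lower in each medium, which became 3 and 4 with the cytokines after quantile normalization. The shares of all tested genes were 25.3% higher and 21.7% lower in medium, and 23.5% and 22.1% with the cytokines.

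The J proteins of the ER lumen serve the ER chaperone *Hspa5* (BiP), and they too divided. *Dnajb9* (ERdj4), which brings *Hspa5* to the stress sensor Ire1, had the largest fall on the log2(FPKM + 1) scale among the tested members in both media (as a share of the shRNA-NC mean in medium it was at 38.5%, against 33.2% for *Dnajc28*). It was at 13.4, 13.1 and 23.2 FPKM in shRNA-NC and 5.84, 6.18 and 7.14 FPKM in shRNA-*Ddx5* cells in medium, and at 36.7, 16.5 and 19.3 FPKM against 6.52, 6.57 and 6.23 FPKM with the cytokines. The shRNA-NC libraries were widely spread and the knockdown libraries were close together and below them all. The log2 fold changes were -1.21 ± 0.26 and -1.67 ± 0.26 (adjusted p = 0.00316 and 0.000398), and without replicate 1 of shRNA-NC with cytokines the latter was -1.34 (adjusted p = 0.000575).

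The lumenal J proteins *Dnajb11* and *Dnajc3* rose. *Dnajb11* (ERdj3), which binds nascent secretory proteins, was at 19.3, 19.6 and 18.2 FPKM in shRNA-NC and 40.8, 32.8 and 35.1 FPKM in shRNA-*Ddx5* cells in medium, and at 24.4, 22.4 and 21.95 FPKM against 38.4, 38.4 and 35.7 FPKM with the cytokines. The gain was 0.89 ± 0.09 and 0.69 ± 0.09 on the log2 scale (adjusted p = 1.51e-05 and 8.20e-05). *Dnajc3* (p58IPK), an ER co-chaperone that also restrains the kinase PERK, was at 9.58, 11.05 and 12.3 FPKM in shRNA-NC against 16.8, 21.7 and 23.3 FPKM in shRNA-*Ddx5* cells in medium and at 12.6, 10.7 and 9.78 FPKM against 15.5, 15.3 and 17.1 FPKM with the cytokines, gains of 0.84 ± 0.13 and 0.50 ± 0.13 (adjusted p = 0.000374 and 0.00902). For both genes all knockdown libraries lay above all shRNA-NC libraries in the same medium. *Dnajc1* and *Dnajc10* (ERdj5, a disulfide reductase) were not called with the knockdown. *Hspa5* itself was at 171 ± 18.4 and 147 ± 6.13 FPKM in medium and at 354 ± 101 and 202 ± 5.04 FPKM with the cytokines, and called lower with the knockdown under cytokines (-0.77 ± 0.16, adjusted p = 0.00234; in medium 0.293).

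**Figure D4:**
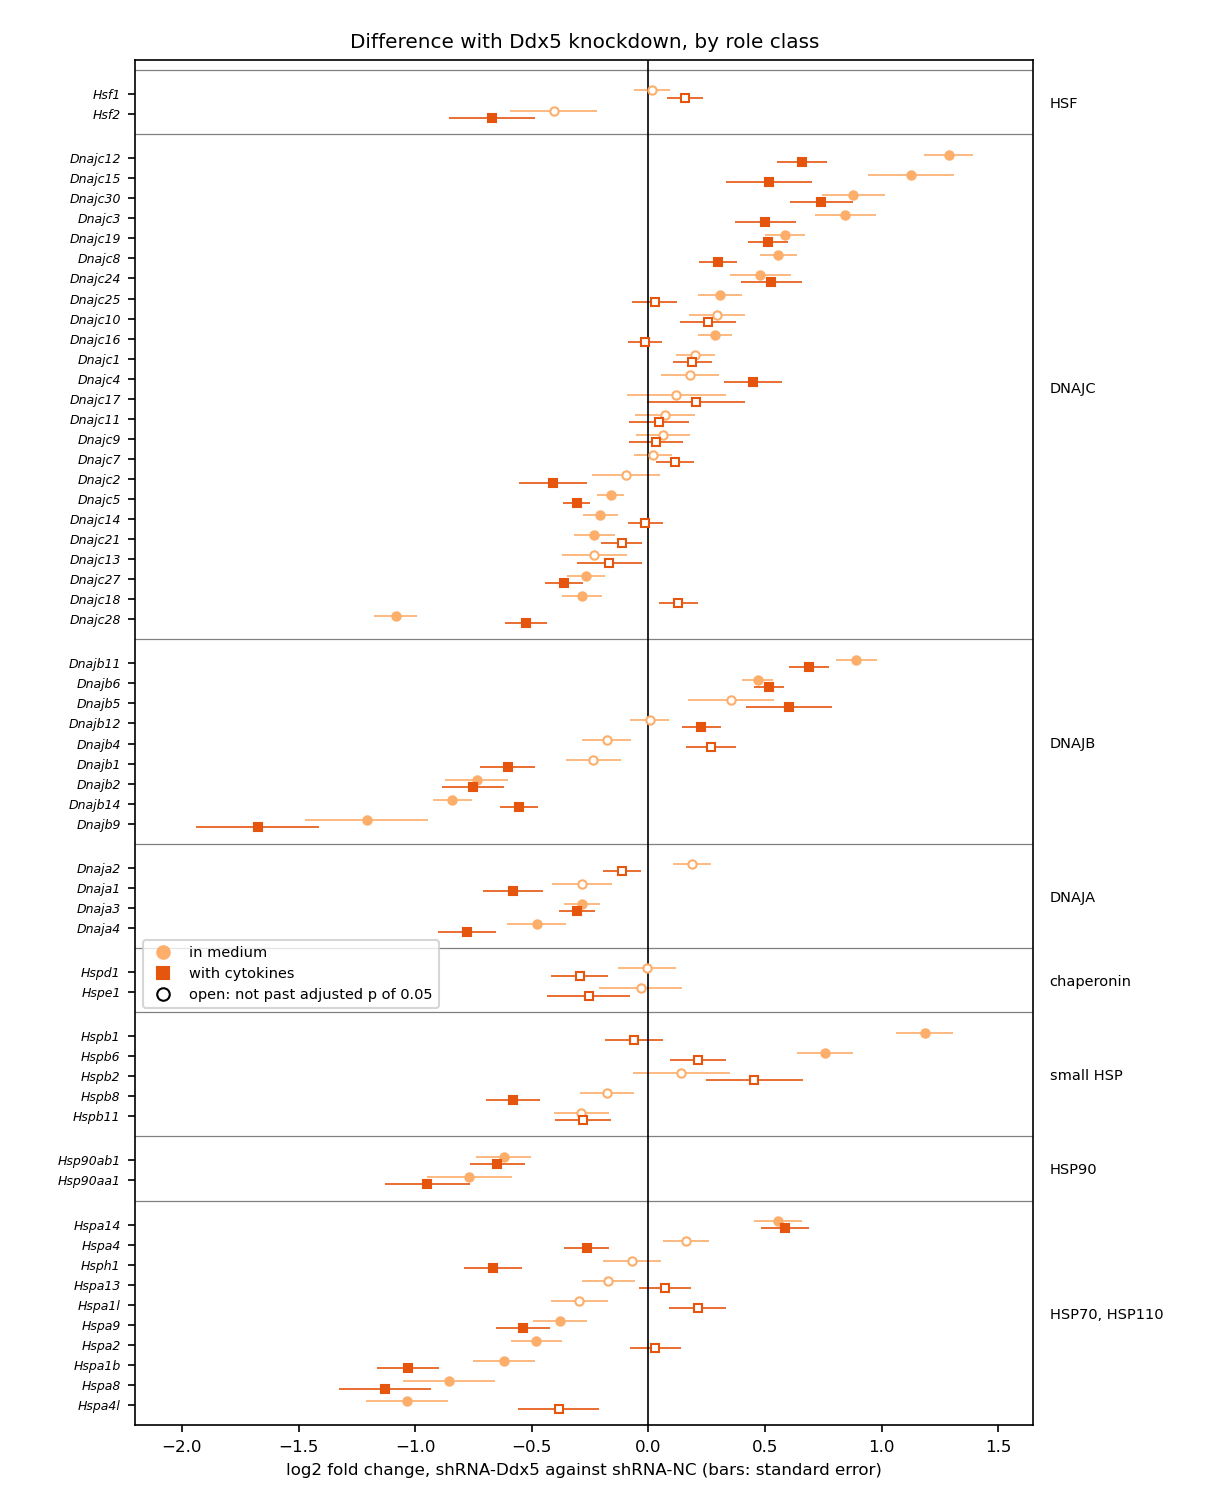
Log2 fold change of each tested member with the knockdown (x axis, shRNA-*Ddx5* against shRNA-NC, bars are standard errors), in medium (circles) and with cytokines (squares), by role class. Filled symbols passed the threshold; both Hsp90 genes and *Hspa8* lay left of zero in both media, the DNAJC genes spread from -1.08 (*Dnajc28*) to 1.29 (*Dnajc12*) in medium, and *Hspb1* was far right in medium and near zero with cytokines.

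Outside these compartments the DNAJB and DNAJC genes went both ways. *Dnajb6*, a nuclear and cytosolic J protein that blocks polyglutamine aggregation, was higher in every comparison: it was at 20.7, 20.9 and 20.9, then 27.7, 28.7 and 31.3 FPKM with the knockdown in medium, 29.97, 28.3 and 27.9 FPKM in shRNA-NC cells with cytokines and 41.1, 42.4 and 41.1 FPKM with both. No library of the first group reached any of the other 3, and no library of the last was reached by them. The log2 fold changes were 0.47 ± 0.07 and 0.52 ± 0.07 with the knockdown and 0.45 ± 0.07 and 0.49 ± 0.07 with the cytokines (adjusted p = 0.000189, 9.25e-05, 0.000415 and 0.000181). *Dnajb14*, an ER membrane J protein, was lower in every comparison: 4.48, 5.11 and 5.10 FPKM in shRNA-NC cells in medium, 2.02, 2.45 and 2.41 with the knockdown, 2.72, 2.71 and 2.78 with the cytokines and 1.61, 1.55 and 1.46 FPKM with both. Its log2 fold changes were -0.84 ± 0.08 and -0.56 ± 0.08 with the knockdown and -0.66 ± 0.08 and -0.37 ± 0.08 with the cytokines (adjusted p = 1.73e-05, 0.000277, 0.000136 and 0.00634). The changes of *Dnajb6* and *Dnajb14* kept their calls in every alternative setting that was run.

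*Dnajb2*, a J protein with ubiquitin-binding motifs that sorts clients to the proteasome, fell from 17.2, 16.3 and 12.5 FPKM to 9.79, 7.52 and 8.996 FPKM in medium and from 15.4, 18.1 and 20.4 FPKM to 10.6, 10.2 and 9.76 FPKM with the cytokines (-0.74 ± 0.13 and -0.75 ± 0.13, adjusted p = 0.00105 and 0.000913). *Dnajb5* was called higher with the knockdown under cytokines (0.60 ± 0.18, adjusted p = 0.0193), a call that was lost without replicate 1 of shRNA-NC with cytokines (0.48, adjusted p = 0.0763). *Dnajc8*, a J protein of the spliceosome and the most abundant DNAJC gene per length, was at 78.9, 80.1 and 76.8 FPKM in shRNA-NC and 118, 112 and 119 FPKM in shRNA-*Ddx5* cells in medium, and at 96.3, 83.2 and 78.3 FPKM against 106, 107 and 104 FPKM with the cytokines. It rose by 0.56 ± 0.08 and 0.30 ± 0.08 on the log2 scale (adjusted p = 0.000228 and 0.0109), the latter 0.19 and not called (adjusted p = 0.0518) after rescaling to the same FPKM sum. *Dnajc24*, which acts in diphthamide synthesis, rose by 0.48 and 0.53 (adjusted p = 0.0107 and 0.00655). *Dnajc2*, a ribosome-associated J protein that works with *Hspa14*, was lower with the knockdown under cytokines (-0.41 ± 0.14, adjusted p = 0.0373) and not called in medium (-0.10 ± 0.14, adjusted p = 0.617), whereas its partner *Hspa14* rose in both. *Dnajc2* was at 96.4, 62.7 and 66.5 FPKM in the shRNA-NC and 56.4, 52.1 and 57.6 FPKM in the shRNA-*Ddx5* cells with cytokines, and without replicate 1 of shRNA-NC with cytokines the difference was -0.22 and not called (adjusted p = 0.105). Over the DNAJC genes, 9 of 24 tested were higher and 6 lower in medium, and 8 and 4 with the cytokines, with a median log2 fold change of 0.15 and 0.12 (7 and 6 in medium after rescaling to the same FPKM sum). Beside them, 25.3% of all tested genes were higher and 21.7% lower in medium, and 23.5% and 22.1% with the cytokines.

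Several more DNAJ genes were called with the knockdown. *Dnajc5* (cysteine string protein), which guards exocytosis, was at 24.5, 24.9 and 24.7 FPKM in shRNA-NC and 21.99, 21.6 and 22.3 FPKM in shRNA-*Ddx5* cells in medium, and at 27.8, 29.3 and 27.9 FPKM against 23.1, 22.8 and 22.2 FPKM with the cytokines (-0.16 ± 0.06 and -0.31 ± 0.06, adjusted p = 0.0397 and 0.00136). Of the 5 DNAJ genes of vesicles and endosomes, *Dnajc5* and the uncalled *Dnajc13* were the 2 tested. *Dnajc27*, a small GTPase with a J domain, was lower in both media as well (-0.27 ± 0.08 and -0.36 ± 0.08, adjusted p = 0.0188 and 0.00390). In medium *Dnajc14*, *Dnajc18* and *Dnajc21* were also called lower (-0.21 ± 0.07, -0.28 ± 0.08 and -0.23 ± 0.09), and *Dnajc16* and *Dnajc25* higher (0.28 ± 0.07 and 0.31 ± 0.10). The call on *Dnajc21*, which serves ribosome assembly, was lost in 13 alternative settings. With the cytokines *Dnajb12*, an ER membrane J protein like *Dnajb14*, and *Dnajc4* were called higher (0.23 ± 0.08 and 0.45 ± 0.12, adjusted p = 0.0444 and 0.0121), the former not without replicate 1 of shRNA-NC with cytokines (0.21, adjusted p = 0.0931).

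The 11 members never called were *Hspd1*, *Hspe1*, *Hsf1*, *Hspb2*, *Hspa13*, *Dnajc7*, *Dnajc9*, *Dnajc10*, *Dnajc11*, *Dnajc13* and *Dnajc17*. By limma 4 of them (*Hspd1*, *Hspe1*, *Dnajc10* and *Dnajc11*) had an unadjusted p under 0.05 in at least 1 comparison. Without replicate 1 of shRNA-NC with cytokines *Dnajc10* was called higher with the knockdown in both media (0.29 and 0.35, adjusted p = 0.0426 and 0.0407). *Dnajc9*, a histone chaperone of dividing cells, was at 68.7 ± 6.17 FPKM in shRNA-NC and 72.1 ± 10.6 FPKM in shRNA-*Ddx5* cells in medium and at 64.97 ± 4.15 and 66.6 ± 5.35 FPKM with the cytokines (SD, n = 3).

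Among the tested members the largest change of the knockdown effect between the media was that of *Hspb1*, a small heat shock protein. It was the 1 small heat shock protein called for that change, and 4 tested ones were not called. Of the 5 tested small heat shock proteins, 2 were higher with the knockdown in medium and 1 was lower with the cytokines. Beside them stood 25.3% and 22.1% of all tested genes. *Hspb1* (HSP25 in the mouse, chr5:135916773-135918417, plus strand, GRCm39), which binds unfolded proteins and actin filaments, was at 31.8, 33.5 and 29.5 FPKM in shRNA-NC and 87.1, 60.6 and 73.5 FPKM in shRNA-*Ddx5* cells in medium. With the cytokines it was at 101, 109 and 87.2 FPKM in shRNA-NC and 93.1, 94.9 and 95.4 FPKM in shRNA-*Ddx5* cells. The shRNA-NC libraries in medium thus lay below all 9 others, and under cytokines the cell lines overlapped. *Hspb1* rose with the knockdown in medium by 1.18 ± 0.12 on the log2 scale (adjusted p = 2.54e-05) and with the cytokines in shRNA-NC cells by 1.61 ± 0.12 (adjusted p = 3.01e-06). Under cytokines the knockdown difference was -0.06 ± 0.12 (adjusted p = 0.717). The second knockdown effect minus the first was -1.25 ± 0.17 (adjusted p = 0.00151), and it passed in every alternative setting. The rise with the cytokines in shRNA-*Ddx5* cells, 0.37 ± 0.12 (adjusted p = 0.0467), was lost in 14 alternative settings, among them the fit without replicate 1 of shRNA-NC with cytokines (adjusted p = 0.0509).

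*Hspb6* (HSP20) also rose in medium, from 11.6, 10.7 and 7.81 to 18.4, 16.3 and 17.8 FPKM (0.76 ± 0.12, adjusted p = 0.000425), and was not called with the cytokines (0.21 ± 0.12, adjusted p = 0.173). *Hspb8*, which with *Bag3* feeds selective autophagy and was the most abundant small heat shock protein per length, was at 186, 166 and 145 FPKM in shRNA-NC against 158, 130.3 and 149.9 FPKM in shRNA-*Ddx5* cells in medium and at 203, 165 and 166 FPKM against 116, 122 and 117 FPKM with the cytokines. It was lower with the knockdown under cytokines (-0.58 ± 0.12, adjusted p = 0.00186) and overlapped in medium (-0.18 ± 0.12, adjusted p = 0.234). Its partner *Bag3* was also lower under cytokines, with 37.8 ± 0.401 FPKM in shRNA-NC and 22.02 ± 0.695 FPKM in shRNA-*Ddx5* cells (SD, n = 3; -0.75 ± 0.17, adjusted p = 0.00406). *Hspb11*, a subunit of the ciliary transport train in spite of its name, was not called with the knockdown and fell with the cytokines in both lines (-0.45 ± 0.12 and -0.44 ± 0.12, adjusted p = 0.0141 and 0.0185). *Hspb2* overlaps *Cryab* on the other strand over 1283 bases, and it was not called in any comparison.

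The other members whose knockdown difference changed with the cytokines were *Dnajc12* and *Dnajc28*. *Dnajc12*, a co-chaperone of the aromatic amino acid hydroxylases, was at 2.84, 2.13 and 2.24 FPKM in shRNA-NC and 7.93, 6.49 and 7.48 FPKM in shRNA-*Ddx5* cells in medium, and at 3.03, 3.79 and 3.16 FPKM against 5.58, 6.08 and 5.77 FPKM with the cytokines. It was higher in all knockdown libraries in both media (1.29 ± 0.11 and 0.66 ± 0.11, adjusted p = 5.37e-06 and 0.000469), and the second effect minus the first was -0.63 ± 0.15 (adjusted p = 0.0269). *Dnajc28* was at 3.44, 3.64 and 4.31 FPKM in shRNA-NC against 1.31, 1.39 and 1.08 FPKM in shRNA-*Ddx5* cells in medium and at 2.57, 2.40 and 2.53 FPKM against 1.43, 1.37 and 1.49 FPKM with the cytokines. It was lower in all knockdown libraries (-1.08 ± 0.09 and -0.53 ± 0.09, adjusted p = 6.11e-06 and 0.000745), and the second effect minus the first was 0.56 ± 0.13 (adjusted p = 0.0229). The calls on these changes were lost in 8 settings for *Dnajc12* and 5 for *Dnajc28*.

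**Figure D5:**
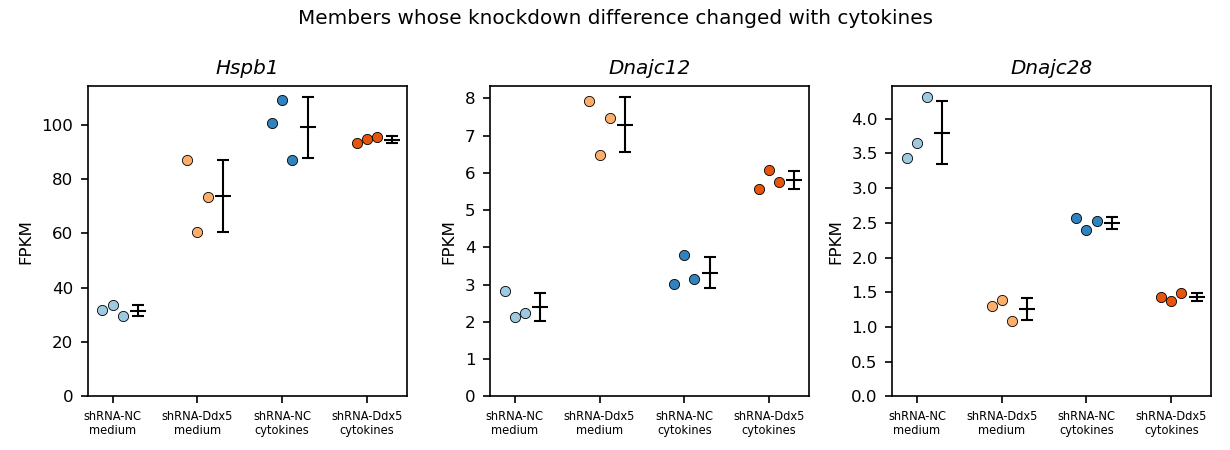
FPKM of *Hspb1*, *Dnajc12* and *Dnajc28* in each library (points, 3 per group) with the mean and SD of each group beside them. *Hspb1* was lowest in shRNA-NC cells in medium (29.5 to 33.5 FPKM) and at 60.6 FPKM or more in every other library, while the knockdown shifted *Dnajc12* up and *Dnajc28* down in both media.

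The cytokines alone raised a subset of chaperones in shRNA-NC cells, at a share of the tested members (20.7%) near that of all tested genes (18.6%). Beside *Hspb1*, they were *Hspa1b* (0.53 ± 0.13, adjusted p = 0.0102), *Hsph1* (0.61 ± 0.13, adjusted p = 0.00348), *Hspa4* (0.49 ± 0.10, adjusted p = 0.00269), *Dnaja1* (0.54 ± 0.13, adjusted p = 0.00802), *Dnaja2* (0.45 ± 0.08, adjusted p = 0.00169), *Dnajb1* (0.48 ± 0.12, adjusted p = 0.00875), *Dnajc2* (0.46 ± 0.14, adjusted p = 0.0293) and *Dnajb6*. Without replicate 1 of shRNA-NC with cytokines the log2 fold changes of *Hspa1b*, *Hsph1*, *Hspa4*, *Dnaja1*, *Dnaja2* and *Dnajb1* were 0.48, 0.45, 0.37, 0.48, 0.37 and 0.41, all still called, whereas *Dnajc2* was 0.27 and *Dnajb11* 0.21, neither still called (adjusted p = 0.0653 and 0.102). *Dnaja1* was not called after quantile normalization (0.27, adjusted p = 0.115). That library decided the value of *Hspa8*, which was -0.10 and not called with it (adjusted p = 0.734) and -0.37 and called lower without it (adjusted p = 0.0488). Leaving it out also brought the difference of *Hspa8* with the cytokines in shRNA-*Ddx5* cells, -0.37, past the threshold (adjusted p = 0.195 with it and 0.0303 without). Over all members, 10 were higher and 7 lower without it, beside 2093 and 1644 of all tested genes. *Dnajb11* (0.26 ± 0.09, adjusted p = 0.0388) and *Dnajc12* (0.35 ± 0.11, adjusted p = 0.0265) were also called higher and lost that call in 14 and 7 alternative settings, and *Dnajc5* was called higher by 0.19 ± 0.06 (adjusted p = 0.0265).

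In shRNA-*Ddx5* cells none of *Hspa1b*, *Hsph1*, *Hspa4*, *Dnaja1*, *Dnaja2*, *Dnajb1* and *Dnajc2* passed with the cytokines (0.11, 0.01, 0.07, 0.24, 0.15, 0.12 and 0.15 on the log2 scale). For none of them did the difference between the cell lines pass (adjusted p from 0.0636 for *Hsph1* up to 0.391 for *Dnajc2*). The members that rose there were *Hspa4l* (8.17, 14.9 and 10.7 FPKM in medium and 19.2, 18.4 and 24.3 FPKM with the cytokines, 0.85 ± 0.18, adjusted p = 0.00404), *Dnajb6*, *Hspb1* and *Dnajc21* (0.34 ± 0.09, adjusted p = 0.0145). Those that fell were *Dnajb14*, *Hspb11*, *Dnajc16* (-0.42 ± 0.07, adjusted p = 0.00143), *Dnajc30* (-0.42 ± 0.14, adjusted p = 0.0397) and *Dnajc1* (-0.26 ± 0.08, adjusted p = 0.0391). Without replicate 1 of shRNA-NC with cytokines, 3 members were higher and 7 lower in shRNA-*Ddx5* cells, in place of 4 and 5. Of all tested genes 1878 and 1913 were, in place of 1671 and 1673. In shRNA-NC cells, *Dnajb14*, *Dnajc28* and *Hspb11* fell, as did *Dnajc18* (-0.57 ± 0.08, adjusted p = 0.000438) and *Hspa1l* (-0.45 ± 0.12, adjusted p = 0.0145), the HSP70 gene that lies 546 bases from *Hspa1a* in the opposite direction. *Hspa2* (-0.39 ± 0.11, adjusted p = 0.0170), *Dnajb4*, a cytosolic relative of *Dnajb1* (-0.38 ± 0.11, adjusted p = 0.0178), *Dnajc4* (-0.38 ± 0.12, adjusted p = 0.0339) and *Dnajc1* (-0.25 ± 0.08, adjusted p = 0.0402) were called lower there too. The calls on *Dnajb4*, *Dnajc4* and *Dnajc1* were lost without replicate 1 of shRNA-NC with cytokines (-0.35, -0.27 and -0.26, adjusted p = 0.0509, 0.111 and 0.0625).

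Of the heat shock factors, *Hsf2* was called lower with the knockdown under cytokines and *Hsf1* was called in no comparison. *Hsf1* was at 34.4, 34.02 and 32.7 FPKM in shRNA-NC against 37.5, 32.4 and 32.6 FPKM in shRNA-*Ddx5* cells in medium and at 32.4, 35.5 and 32.7 FPKM against 36.2, 39.7 and 36.8 FPKM with the cytokines, with the groups overlapping in medium (log2 difference 0.02 ± 0.08 and 0.16 ± 0.08 with the knockdown, adjusted p = 0.884 and 0.119). RNA does not report the activity of *Hsf1*, which is set on the protein. *Hsf2*, the factor better known from development, was at 6.24, 6.41 and 9.30 FPKM in shRNA-NC against 4.22, 6.02 and 5.48 FPKM in shRNA-*Ddx5* cells in medium and at 9.36, 5.60 and 6.01 FPKM against 3.68, 3.98 and 4.10 FPKM with the cytokines. Its difference with the knockdown was past the threshold under cytokines (-0.67 ± 0.19, adjusted p = 0.0120) and not in medium (-0.41 ± 0.19, adjusted p = 0.0929, or 0.0401 without replicate 1 of shRNA-NC with cytokines). *Hsbp1*, a small protein that binds heat shock factor trimers, was higher in both media, from 75.4 ± 10.6 to 104 ± 1.28 FPKM and from 82.3 ± 5.02 to 109 ± 8.69 FPKM (SD, n = 3; 0.47 ± 0.10 and 0.40 ± 0.10, adjusted p = 0.00303 and 0.00798).

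The chaperone machinery outside the named families was read from fixed lists for comparison. Of all tested genes, 25.3% were called higher and 21.7% lower with the knockdown in medium, and 23.5% and 22.1% with the cytokines. The cytokines raised 18.6% of all tested genes in shRNA-NC and 13.5% in shRNA-*Ddx5* cells. Of 14 HSP90 co-chaperones, 4 were higher and 3 lower with the knockdown in medium and 1 and 5 with the cytokines, while the cytokines raised 8 in shRNA-NC and 3 in shRNA-*Ddx5* cells. By limma the cytokines lowered none of them, with 1 lower in each cell line at an unadjusted p under 0.05, and after rescaling to the same FPKM sum they lowered 1 in shRNA-NC and 2 in shRNA-*Ddx5* cells. *Chordc1*, an HSP90 partner, fell with the knockdown in both media (-0.61 ± 0.15 and -0.76 ± 0.15, adjusted p = 0.00610 and 0.00172), and *Sugt1*, which links HSP90 to ubiquitin ligases, rose in medium (0.88 ± 0.15, adjusted p = 0.000684; with the cytokines 0.14 ± 0.15, adjusted p = 0.480). Of 12 HSP70 exchange factors and co-chaperones, 3 were higher and 2 lower in medium and 1 and 3 with the cytokines, with *Bag2*, an inhibitor of HSP70-bound ubiquitylation, higher in both (0.78 ± 0.07 and 0.45 ± 0.07, adjusted p = 1.35e-05 and 0.000494). The TRiC chaperonin and prefoldin, which fold actin and tubulin, had 2 of 14 genes higher in medium (*Cct6a*, 0.73 ± 0.14, and *Pfdn4*, 0.76 ± 0.17) and none lower, against 2 higher and 3 lower after quantile normalization. With the cytokines none of the 14 was called by limma, where 1 was higher and 1 lower at an unadjusted p under 0.05. Of the 4 HSP70 and HSP90 genes of the ER and mitochondria left out of the members, *Hspa5* is given above, *Hyou1*, the HSP110 of the ER, rose in medium (0.47 ± 0.08, adjusted p = 0.000743; with the cytokines 0.21 ± 0.08, adjusted p = 0.0540), *Hsp90b1* was not called (-0.01 ± 0.17 and 0.00 ± 0.17) and *Trap1*, the mitochondrial HSP90, fell in both media (-0.50 ± 0.08 and -0.36 ± 0.08, adjusted p = 0.000562 and 0.00436).

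The 14 members that were not tested were *Hspa1a*, *Hspa12a*, *Hspa12b*, *Hspb3*, *Hspb7*, *Hspb9*, *Dnajb3*, *Dnajb7*, *Dnajb8*, *Dnajb13*, *Dnajc5b*, *Dnajc5g*, *Dnajc6* and *Dnajc22*, and none reached 1 FPKM in any library. *Hspb3* and *Dnajc5g* had no fragment in any library, against a limit of 3 fragments that a count of 0 allows per library. *Hspa12a*, an atypical HSP70, had the most fragments of the 14, and was at 0.515, 0.476 and 0.483 FPKM in shRNA-NC cells in medium, 0.0898, 0.119 and 0.104 with the knockdown, 0.113, 0.143 and 0.229 with the cytokines and 0.0731, 0.144 and 0.119 with both. These stood on 54 to 79, 11 to 16, 14 to 32 and 9 to 17 fragments per library. The first group did not overlap the others, but the gene was below the filter and was not tested.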

How the data were processed

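RNA of the 12 libraries was poly-T selected and fragmented, per the labels, and read as paired 150-base reads, per the methods of the study. The authors deposited gene levels as FPKM (fragments per kilobase of gene length, scaled by a denominator set for each library), and the submitters' processing notes name HISAT2 2.0.5, featureCounts 1.5.0-p3, DESeq2 1.20.0 and GATK 3.7 and the build mm10, with no role or order. The coordinates in the deposited table follow GRCm39, and 71 of the 72 members overlapped their GENCODE entry on that build. Strand setting and the treatment of reads with several matches are not given in the sources used here. FPKM times length came out as whole multiples of a fixed step in every library (largest gap 3.86e-08 of a fragment), which gave the fragments per gene, and the denominators were 0.957 to 1.08 times their sums. Intervals and floors on fragments cover counting error only.

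Groups followed the labels. Genes with at least 1 FPKM in at least 3 libraries were fitted with limma 3.58.1 (R 4.3.3) on log2(FPKM + 1), with 4 group means, moderated variances with a trend and Benjamini-Hochberg adjustment over all 12368 genes, and called at an adjusted p under 0.05. Fold changes on this scale understate the change of low genes. Errors are SD over 3 libraries, and SE for fold changes. The interaction was the knockdown effect with cytokines minus that in medium. Genes were named by a rule: a set of core chaperones, the members with the largest called and non-overlapping changes in each comparison, members called in the interaction, the most abundant member of each class and the most changed genes of each related list. The other members are named too, so that every member is accounted for, and *Hyou1*, *Hsp90b1* and the overlapping genes were added after their values were seen. The members and lists were chosen with earlier results of these data known. Alternatives were another pseudocount, other filters, quantile normalization, rescaling to the same FPKM sum, a replicate block, no variance trend, fits on 6 libraries, precision weights on fragments (voom), and leaving out each library. Tables were handled with Python 3.11.15 and pandas 2.3.3. Promoter windows came from the RefSeq promoter table, in which 57 of the 72 members had a window.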

Additional observations from a re-analysis of the deposited data

Results flagged for a closer look

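The knockdown effect differed between the media by limma's interaction term for 3 members, given here as the log2 effect with cytokines minus that in medium. It was -1.25 for *Hspb1*, where the knockdown effect was 1.18 in medium and -0.06 with the cytokines (adjusted p = 0.00151). It was -0.63 for *Dnajc12*, with effects of 1.29 and 0.66 (adjusted p = 0.0269). It was 0.56 for *Dnajc28*, with effects of -1.08 and -0.53 (adjusted p = 0.0229). All 3 knockdown libraries lay on the same side of the shRNA-NC libraries in both media for *Dnajc12* and *Dnajc28*, and for *Hspb1* in medium.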

How the results depend on the processing

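Changes of direction were looked for in the genes named by the rule, and none of them changed direction while called. The knockdown calls on *Hspa8*, *Hspa1b*, *Hsp90aa1*, *Hsp90ab1*, *Dnajb6*, *Dnajb9*, *Dnajb11*, *Dnajb14* and *Dnajc28* held in both media under every alternative. For the cytokines in shRNA-NC cells, 7 members were called higher after quantile normalization and 7 when only the 6 libraries compared were fitted, in place of 12. Of all genes 1815 and 1670 were, in place of 2303. For the cytokines in shRNA-*Ddx5* cells, 5 members were called lower in the main fit, beside 1673 of all genes. With no filter on low values 3 were lower (1765 of 27209 genes), and after quantile normalization 9 (2183 genes). After rescaling to the same FPKM sum 11 were lower (2446 genes), and with only the 6 libraries compared 8 (1891 genes). After rescaling 2 in place of 4 members were higher, beside 1221 in place of 1671 of all genes. Of the members whose knockdown effect differed between the media (1 higher and 2 lower), 2 were higher with no filter and after rescaling, and with voom weights 0 were higher and 1 lower. Among all genes 428 were higher and 588 lower in the main fit. The higher ones were 450 with no filter and 392 after rescaling, and voom weights gave 339 higher and 516 lower. Leaving out a library gave 2 to 6 members higher and 2 to 7 lower for the cytokines in shRNA-*Ddx5* cells. Among all genes 1159 to 1971 were then higher and 1080 to 1913 lower. The members lower were 2 without replicate 3 of shRNA-*Ddx5* in medium and without replicate 2 or 3 of shRNA-*Ddx5* with cytokines. For the interaction, leaving out a library gave 559 to 1123 of all genes in place of 1016, 0 to 2 members higher and 1 to 3 lower. It gave 559 to 632 genes without replicate 2 of shRNA-NC or replicate 3 of shRNA-*Ddx5* in medium or any replicate of shRNA-*Ddx5* with cytokines. Rescaling to the same FPKM sum moved the median of all genes by -0.12 (log2) for the knockdown in medium and -0.14 for the cytokines in shRNA-NC cells, and the share of higher among all called genes from 53.8% to 37.4% and from 55.1% to 32.8% (from 51.5% to 38.9% and from 49.97% to 33.3% in the other 2 comparisons). The cause was not tested.

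Libraries of the same replicate number did not deviate together in every comparison (correlations from -0.368 to 0.448), so the numbers were not read as pairs. With the replicate number as a block, 14 members were higher and 15 lower with the knockdown in medium, beside 2927 and 2525 of all genes. With the knockdown under cytokines they were 11 and 18, beside 2692 and 2540. With the cytokines in shRNA-*Ddx5* cells 3 were lower, beside 1414 of all genes. For the interaction 0 were higher and 1 lower, with 687 of all genes called.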

Other observations

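*Sugt1*, which links HSP90 to ubiquitin ligases, was at 9.63 ± 0.806 FPKM in shRNA-NC and 18.6 ± 1.74 FPKM in shRNA-*Ddx5* cells in medium and at 15.1 ± 3.704 and 16.6 ± 2.35 FPKM with the cytokines (SD, n = 3), and like *Hspb1* it was lowest in shRNA-NC cells in medium. The change of its knockdown effect between the media was -0.75 ± 0.21 and did not pass (limma with Benjamini-Hochberg adjustment, adjusted p = 0.0559).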
